A study of Mus musculus with 8 samples.

Results

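The comparison described here sets the livers of 2 AKP::Keap1 male mice against those of 2 AKP male mice. These 4 arrays, 1 per mouse, were taken by their title codes (KPKM for AKP::Keap1 and KPM for AKP) from 8 in all, and the other 4 hold the same genotypes in females. RNA came from whole liver. Per the labels, AKP mice express an activated oncogene together with mutant p53 in the liver, and AKP::Keap1 mice express both and also lack Keap1 there. All 4 males thus carry the tumour-driving alleles, no wild-type liver and no liver with Keap1 loss alone is used, and the labels name neither the promoter that drives the alleles nor the age of the mice. The series title places the model in cholangiocarcinoma, a cancer of bile duct type, and the question was what loss of Keap1 adds to the AKP liver.

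Keap1 is the adaptor that hands the transcription factor Nrf2 (gene symbol Nfe2l2) to a ubiquitin ligase, so that Nrf2 is degraded in unstressed cells. Electrophiles and oxidants modify Keap1, Nrf2 escapes and, paired with a small Maf protein, binds antioxidant response elements in front of genes for glutathione synthesis, conjugation, quinone reduction, efflux and NADPH supply. In the liver this programme serves detoxification, and deletion of Keap1 turns it on without a stimulus. Hepatocytes make most of the RNA of a liver, and bile duct cells, macrophages, stellate cells and endothelium contribute the rest.

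On each array 65.7% to 70.7% of spots exceeded background clearly (Agilent's flag, called above background from here on), and no spot was saturated. The AKP::Keap1 male arrays were brighter, with 75th percentiles of 10.58 and 10.51 on the log2 scale of the processed signal against 9.93 and 10.15 on the AKP male arrays. Levels below are log2 signals relative to that percentile of the same array, differences are AKP::Keap1 minus AKP on the log2 scale with the standard error (SE) of the fit, n is 2 mice per group, and adjusted p-values are those of limma, Benjamini-Hochberg adjusted over 15834 genes. A gene was said to rise or fall at an adjusted p below 0.05. Each group lay on a slide of its own, so slide and genotype cannot be told apart, and the p-values cover only the spread between these samples. In whole tissue, fewer cells of a type and less RNA per cell cannot be told apart either.

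Keap1 had levels of 1.83 and 2.14 in the AKP males and of -1.35 and -1.40 in the AKP::Keap1 males. Both AKP::Keap1 livers were far below both AKP livers, yet their signal was still above background. The difference was -3.36 ± 0.15 (adjusted p = 0.00051), a 10.3-fold fall, and ranged from -3.73 to -2.85 over the alternatives tried, called in each. Where the probe lies relative to the deletion was not tested. Nfe2l2, the mRNA of Nrf2, stood at 2.71 and 2.95 against 2.56 and 2.45 and did not pass the test (-0.32 ± 0.14, adjusted p = 0.13, and 0.18 with unscaled signals). Of 14 measured partners and regulators of Nrf2, 13 were not called and 1 fell, with a median of -0.28. The one that fell was Pgam5, a mitochondrial phosphatase that binds Keap1 (-0.43 ± 0.12, adjusted p = 0.045), and its call was lost after quantile normalization (adjusted p = 0.18) and with any 1 male array left out. Trp53, whose probe does not separate the mutant from the normal allele, was not called either (0.06 ± 0.16, adjusted p = 0.78), with -0.30 when centred on the array median and -0.31 after quantile normalization.

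Genes of the sex chromosomes matched the male label of all 4 mice. The Y-linked Ddx3y had levels of 1.53 and 1.55 in AKP and 1.25 and 1.37 in AKP::Keap1, and Eif2s3y had 2.79, 2.77, 2.72 and 2.80, while in the 4 females both lay at or below -7.39 and not above background. Xist, the RNA that silences an X chromosome in females, was above background in the AKP::Keap1 males and not in the AKP males, at least 2.80-fold higher (adjusted p = 0.0090). Its other probe gave -0.40, and normexp background correction gave -0.79, so that its direction is uncertain.

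In males 4464 of 15834 genes were called, which is 28.2%. Of these, 2649 were higher in AKP::Keap1 livers (16.7% of all genes tested) and 1815 lower (11.5%). At least 2-fold changes were found for 2072 called genes, 1744 of them higher and 328 lower. The groups did not overlap for 73.0% of all genes, so a lack of overlap says little of a single gene. The median difference over all genes was -0.03. The split into rises and falls rests on the scaling: 59.3% of the calls were higher as given, 54.8% after quantile normalization (3214 calls), 20.8% with arrays centred on their median (8232 calls), 25.6% with normexp background correction (5910 calls) and 97.0% with unscaled signals (5574 calls). The median over all genes moved to -0.39, -0.23 and 0.48 under median centring, normexp and unscaled signals. When 1 male array was left out, a group became a single mouse whose spread was taken to be like that of the others. The count fell to 1607 when AKP male 1 was the one left out, to 1610 for AKP male 2, to 1584 for AKP::Keap1 male 1 and to 1033 for AKP::Keap1 male 2. Where 4 counts are given below for arrays left out, they stand in that order. Of 191 named and called genes, 100 kept their call whichever of the 4 male arrays was left out.

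Differences also followed brightness. Among the dimmest 1584 genes the median difference was 0.67, and 29.5% were called higher against 2.27% lower. Among the brightest 1584 genes the median was -0.36, with 2.84% called higher and 23.7% lower. After quantile normalization these medians were 0.24 and -0.04. For many lists the counts of rises and falls are therefore also given after quantile normalization or with normexp background correction (normexp below). More than 1 probe was kept for 1009 called genes, and in 154 of them the probes differed in sign.

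**Figure D1:**
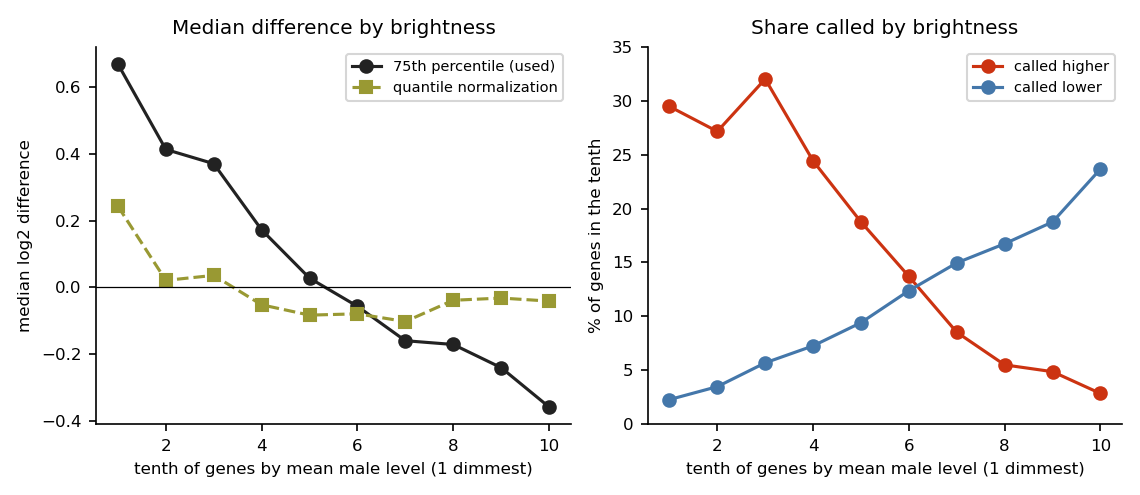
Left, the median log2 difference (AKP::Keap1 minus AKP males) in 10 equal bins of the 15834 genes ordered by mean male level, as used and after quantile normalization; right, the share of each bin called higher or lower. The median runs from 0.67 in the dimmest bin to -0.36 in the brightest, and from 0.24 to -0.04 after quantile normalization.

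The largest rises among genes above background on all 4 male arrays were a chemokine, glutathione and carbonyl enzymes, transporters and genes of other epithelia. Cxcl5, a chemokine that attracts neutrophils, went from -5.93 and -6.37 in AKP to 2.85 and 3.02 in AKP::Keap1, a difference of 9.09 ± 0.61 (adjusted p = 0.0010). The glutathione transferases Gsta1 (7.81 ± 0.70) and Gsta2 (6.06 ± 0.72), the carbonyl reductase Cbr3 (7.01 ± 0.18) and the peroxidase Gpx2 (7.59 ± 0.18) belong to the redox groups below. Gabrp, a subunit of the receptor for the transmitter GABA, had -6.15 and -5.85 against 1.34 and 1.58 (7.46 ± 0.53). Abcc12, a member of the ABC transporter family, had -6.17 and -6.13 against 0.45 and 1.0 (6.88 ± 0.19). In these 3 genes the levels of the AKP::Keap1 livers were close to each other and more than 6 units above those of the AKP livers.

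The other 5 of the 12 largest rises were Tafa2, which encodes a secreted chemokine-like protein (5.82 ± 0.29), and Tspan8, a tetraspanin of digestive epithelia (5.80 ± 0.52). They were joined by Sftpd, surfactant protein D of lung and other epithelia (5.67 ± 0.64), Guca2b, which encodes the gut peptide uroguanylin (5.63 ± 0.74), and Degs2, a sphingolipid hydroxylase (5.62 ± 0.66). Each of the 12 kept its call with any 1 male array left out and after quantile normalization. Gst genes belong to a family of similar sequences, and a probe may bind several of them, so their single values are uncertain.

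Some genes were above background on both AKP::Keap1 arrays and on neither AKP array, so that only a lower bound of the rise can be given. There were 641 such genes, 416 of them called, against 28 with the reverse pattern, 18 of them called. S100b, a calcium-binding protein best known from glia, had -8.90 and -8.78 in AKP and 0.77 and 0.64 in AKP::Keap1, at least 153-fold higher (adjusted p = 0.00032). Slc7a11, which imports cystine for glutathione synthesis, had -8.88 and -8.78 against -0.63 and -0.26, at least 68.9-fold higher (adjusted p = 0.00051). The phosphatase gene Ptprr was at least 74.8-fold higher, Tinag, a basement membrane antigen of the kidney tubule, at least 61.0-fold and Fam83e at least 38.5-fold. Mab21l3 was at least 74.3-fold higher by the probe used, whereas its other probe gave a log2 difference of 1.77. Of genes above background only in AKP, the potassium channel gene Kcnk10 was at least 8.16-fold lower, Gldn at least 4.65-fold, Cfap100 at least 3.82-fold, the alkaline phosphatase Akp3 at least 3.80-fold, Kcnab3 at least 3.1-fold and the carrier Slc10a5 at least 2.87-fold. Among these 12, Gldn lost its call without AKP::Keap1 male 2 (adjusted p = 0.074).

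The largest falls included genes of lipid synthesis and uptake. Lpin1, the phosphatidate phosphatase lipin 1, went from 4.46 and 3.74 to 0.43 and 0.87 (-3.45 ± 0.39, adjusted p = 0.0042). Mfsd2a, a transporter of lysophospholipids, went from 2.72 and 2.75 to -0.67 and -0.57 (-3.35 ± 0.25, adjusted p = 0.0012). Elovl6, a fatty acid elongase, went from 4.63 and 4.28 to 1.39 and 2.01 (-2.75 ± 0.28, adjusted p = 0.0031). These 3 genes were lower in both AKP::Keap1 livers than in both AKP livers by at least 2 units.

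Pnpla3, a lipid droplet hydrolase (-2.81 ± 0.43), Kyat3, a kynurenine aminotransferase (-3.17 ± 0.22), Prxl2b (-3.07 ± 0.15) and Cox7a1, a subunit of cytochrome oxidase (-2.64 ± 0.28), fell as well. Their calls, and those of Lpin1, Mfsd2a, Elovl6 and Keap1, held with any 1 male array left out and after quantile normalization. Slco1a4, an organic anion uptake carrier, fell by 2.69 and lost its call without either AKP male or without AKP::Keap1 male 2 (adjusted p up to 0.079). Tmeff2 (-3.66 ± 0.82, adjusted p = 0.025) lost its call without any 1 of the 4 arrays (adjusted p from 0.052 to 0.11). Cyp4a32, a fatty acid hydroxylase, had uneven levels of -0.34 and 1.86 in AKP and -1.19 and -2.80 in AKP::Keap1, and Igfbp2, a carrier of insulin-like growth factors, had 4.88 and 5.46 against 3.49 and 1.76. Both differences (-2.76 ± 0.81, adjusted p = 0.049, and -2.54 ± 0.62, adjusted p = 0.030) missed the threshold after quantile normalization (adjusted p = 0.058 and 0.053) and without 3 of the 4 arrays each.

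**Figure D2:**
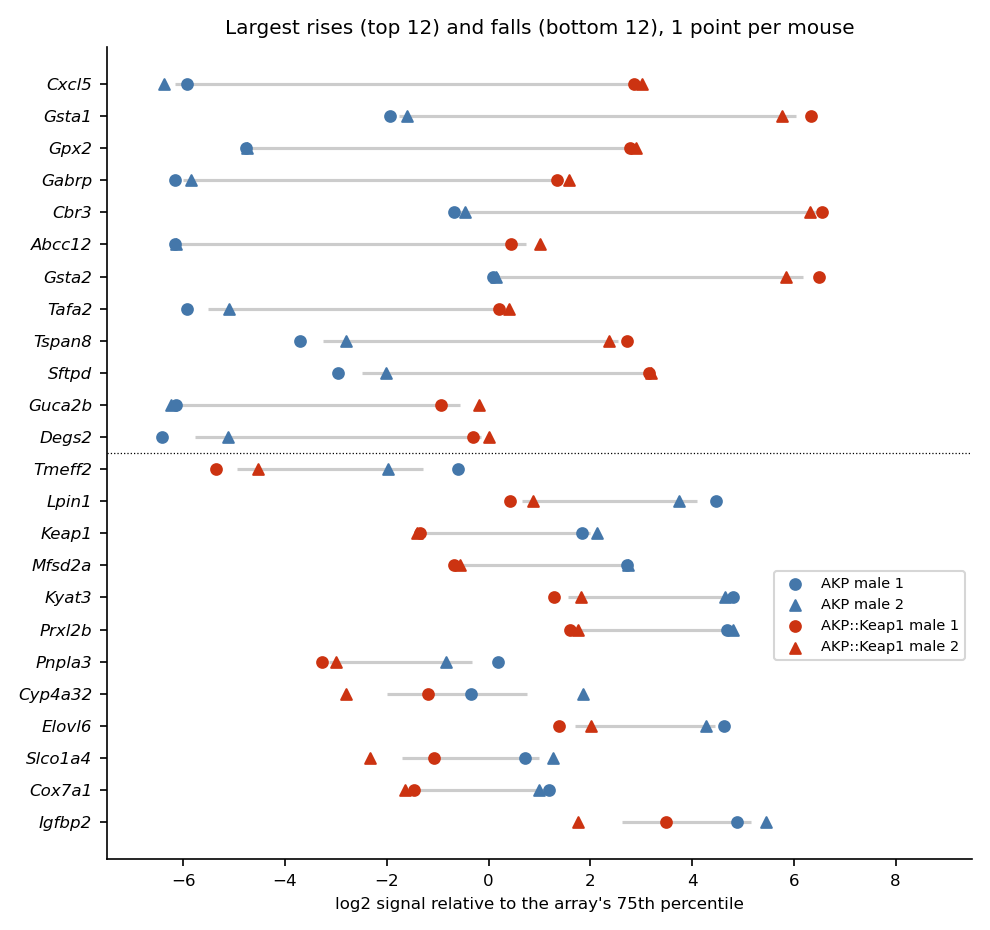
Levels (log2 signal relative to the array's 75th percentile) of the 12 largest rises, above the dotted line, and the 12 largest falls, below it, with 1 point per male mouse and a grey line between the group means. For Cxcl5 the AKP males lie at -5.93 and -6.37 and the AKP::Keap1 males at 2.85 and 3.02; Cyp4a32 and Igfbp2 have the widest spread within a genotype among the falls, and no gene has overlapping groups, which the choice of genes fixed.

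The lists of the Nrf2 programme from glutathione synthesis to NADPH supply each held a larger share of rises than all genes did. Not every member rose. Of the heme and iron genes 15.4% rose and 23.1% fell, against 16.7% and 11.5% of all genes. Of 9 genes of glutathione synthesis and cystine uptake, 4 rose, 0 fell and 5 were not called, with a median of 1.13, against 16.7% of all genes called higher. All 4 stayed called with any 1 array left out. Gclc, the catalytic subunit of the enzyme that starts glutathione synthesis, had 2.89 and 2.93 in AKP and 4.79 and 4.53 in AKP::Keap1 (1.75 ± 0.19, adjusted p = 0.0037). Glutathione reductase Gsr had 3.96 and 3.82 against 5.02 and 5.06 (1.15 ± 0.12, adjusted p = 0.0030). The remaining risers were Slc7a11 and Ggt1, which cleaves extracellular glutathione and is described with the duct genes. Gclm, the modifier subunit of the Gclc enzyme, had -0.25 and -0.38 against 0.11 and 0.11 and was not called (0.42 ± 0.21, adjusted p = 0.17).

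Of 22 glutathione transferases, which join glutathione to electrophiles, 9 rose, 2 fell and 11 were not called, with a median of 0.24. Gstm3 had 2.40 and 2.53 in AKP and 6.72 and 6.56 in AKP::Keap1 (4.18 ± 0.23, adjusted p = 0.00068). The microsomal transferase Mgst2 (4.27 ± 0.30), Gstm4 (2.86 ± 0.20) and Gstm5 (2.15 ± 0.16) rose as well. Gstt1 (-0.77 ± 0.22) and Gstm7 (-0.70 ± 0.20) were the 2 that fell, both with an adjusted p of 0.046, and neither call held after quantile normalization (adjusted p = 0.15 and 0.056) or with any 1 array left out. The list had 11 rises and 0 falls after quantile normalization and 10 and 4 with normexp, and the rises numbered 8, 8, 8 and 7 with 1 array left out.

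Of 20 genes of the thioredoxin, peroxiredoxin and peroxidase systems, 5 rose and 0 fell, with a median of 0.11. Gpx2, an epithelial glutathione peroxidase, had -4.76 and -4.75 against 2.78 and 2.90, and the mice of each genotype were close to each other. Srxn1, sulfiredoxin, which repairs overoxidised peroxiredoxins, had 3.45 and 3.54 against 5.41 and 5.65 (2.04 ± 0.16, adjusted p = 0.0015). Gpx7 rose by 1.38 ± 0.15, and Txnrd1, thioredoxin reductase, by 0.98 ± 0.15 (adjusted p = 0.010), a call lost without AKP male 1 or AKP::Keap1 male 2 (adjusted p up to 0.062). In the 4 fits with 1 array less, 3, 4, 4 and 3 genes rose, and with normexp 5 rose and 4 fell.

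Of 22 quinone, carbonyl and aldo-keto reductases, 11 rose and 3 fell, with a median of 0.68. Cbr3 had -0.67 and -0.46 in AKP and 6.56 and 6.32 in AKP::Keap1. Nqo1, the quinone reductase that serves as a usual readout of Nrf2, had -2.18 and -1.33 against 2.86 and 3.01 (4.69 ± 0.32, adjusted p = 0.0010). Aldehyde oxidase Aox1 (2.29 ± 0.17) and Cbr1 (1.96 ± 0.15) rose too, and all 4 calls held with any 1 array left out. Akr1c18, which inactivates progesterone, fell from 3.23 and 2.67 to 0.93 and 0.97 (-2.0 ± 0.24, adjusted p = 0.0050). Nqo2 (-0.72 ± 0.19) and Akr1c6 (-0.51 ± 0.15) were the other 2 falls, and both calls ended after quantile normalization (adjusted p = 0.10 and 0.54) and with any 1 array left out. In the order above, 6, 6, 7 and 5 reductases rose with an array left out.

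Of 20 genes of glucuronidation and efflux, 8 rose and 0 fell, with a median of 0.60. The pump Abcc4, which exports organic anions across the basolateral membrane, had -2.24 and -2.38 against 2.95 and 2.76 (5.16 ± 0.21, adjusted p = 0.00051). Abcc5 rose by 2.09 ± 0.16 with probes from 0.61 to 2.09, and the glucuronosyltransferase Ugt2b35 by 1.75 ± 0.16. Ugdh, which makes the glucuronic acid donor, had 3.54 and 3.27 against 5.58 and 5.65 (2.21 ± 0.34, adjusted p = 0.0096). Abcc2, the canalicular pump for conjugates, had 2.81 and 2.86 against 3.47 and 3.49 (0.64 ± 0.10, adjusted p = 0.011). Ugdh lost its call without AKP::Keap1 male 2 (adjusted p = 0.056), and Abcc2 without AKP male 1 or either AKP::Keap1 male (adjusted p up to 0.067) or with arrays centred on their median. Without 1 array in turn, 5, 7, 4 and 4 of these genes rose, and 12 did after quantile normalization.

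Of 10 genes of NADPH supply, 3 rose and 0 fell, with a median of 0.25. Pgd, of the oxidative pentose phosphate pathway, had 2.01 and 1.92 against 3.56 and 3.59 (1.61 ± 0.11, adjusted p = 0.0010) and held with any 1 array left out. Transketolase Tkt (0.59 ± 0.13) and the folate enzyme Mthfd2 (1.57 ± 0.46) lost their calls without at least 3 of the arrays (adjusted p up to 0.10 and 0.16), and Mthfd2 also after quantile normalization (adjusted p = 0.11). When arrays were left out, 1, 1, 2 and 1 of the 10 rose.

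Of 13 genes of heme and iron, 2 rose and 3 fell, with a median of -0.32 that lay 0.05 above that of all genes with normexp background correction. The heme transporter Slc48a1 had 2.63 and 2.76 against 4.39 and 4.58 (1.79 ± 0.12), and biliverdin reductase Blvrb 3.31 and 3.1 against 4.87 and 4.94 (1.70 ± 0.15). Hamp2, a hepcidin gene, fell by 2.42 ± 0.35 (adjusted p = 0.0079). Heme oxygenase Hmox1, often used as an Nrf2 target, had 1.18 and 1.44 in AKP and 0.49 and 1.48 in AKP::Keap1 and was not called (-0.32 ± 0.32, adjusted p = 0.46, and 0.17 without AKP::Keap1 male 1). Its constitutive partner Hmox2 fell by 0.59 ± 0.13 and Fech, which inserts iron into heme, by 0.42 ± 0.12, and neither call held after quantile normalization (adjusted p = 0.077 and 0.45) or with any 1 array left out. Of 32 proteasome subunits 0 rose and 4 fell, with a median of -0.22 that was 0.07 after quantile normalization.

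**Figure D3:**
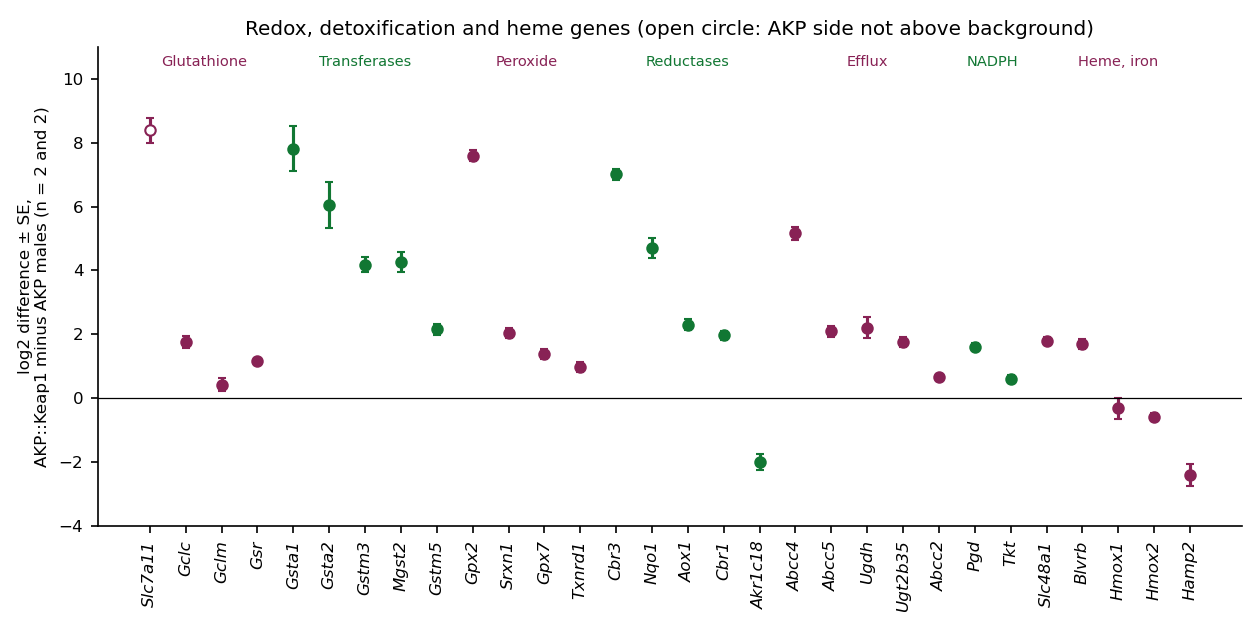
Log2 differences ± SE (AKP::Keap1 minus AKP males, 2 mice each) of named genes of the redox, detoxification and heme groups, with an open circle where the AKP side was not above background and the value is not a measured size. Gpx2, Cbr3, Gsta1, Gsta2 and the open circle of Slc7a11 stand above 6, while Hmox1 (-0.32), Hmox2 (-0.59), Akr1c18 (-2.0) and Hamp2 (-2.42) lie below 0.

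The core of the antioxidant response element, TGACNNNGC, was searched on both strands of RefSeq promoter windows (GRCm38.p6), from 250 bases before to 50 after each start, and overlapping matches were allowed. It occurred in at least 1 window of 25.0% of the redox and detoxification genes that rose (9 of 36 with a window) and of 16.7% of those that did not (11 of 66). Over all genes tested with a window the share was 16.1% (2033 of 12597), it was 17.1% for genes that rose at least 2-fold, and 12.4% of all single windows held a match. Windows of 4 of the genes that rose, each with a match upstream of the start, are shown on the strand of the gene. The core or its reverse complement is in capitals, with 30 bases on either side. Windows of Abcc4 and Ggt1 also hold matches upstream of the start and are not shown. Gstm5 is at chr3:107895782-107895850, plus strand, Ugdh at chr5:65435898-65436004, minus strand, with 2 matches, Txnrd1 at chr10:82859084-82859152, plus strand, and Abcc2 at chr19:43782180-43782248, plus strand.
Gstm5: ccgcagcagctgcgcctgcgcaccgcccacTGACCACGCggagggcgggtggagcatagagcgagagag
Ugdh: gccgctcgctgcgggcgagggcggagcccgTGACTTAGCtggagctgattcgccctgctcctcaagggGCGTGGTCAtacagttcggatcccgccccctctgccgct
Txnrd1: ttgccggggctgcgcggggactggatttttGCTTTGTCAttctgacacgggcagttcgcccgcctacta
Abcc2: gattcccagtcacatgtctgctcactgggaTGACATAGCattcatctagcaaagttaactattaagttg
In Gstm5 and Abcc2 the core reads forward, in Txnrd1 it reads in reverse, and Ugdh has one of each. Gstm5, Ugdh, Txnrd1 and Abcc2 rose by 2.15, 2.21, 0.98 and 0.64. A match describes the letters only, and binding was not measured.

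Genes of bile duct epithelium were higher in the AKP::Keap1 livers. Of 35 such genes, 27 rose, 0 fell and 8 were not called, with a median of 2.65, or 2.20 with genes below background set at their bound. The rises numbered 12, 16, 13 and 9 with 1 array left out, and 24 after quantile normalization, while normexp gave 22 rises, 1 fall and a median of 0.98. The median level of the list was -3.78 and -3.05 in AKP and -0.42 and -0.61 in AKP::Keap1 males, and its summed level 7.20 and 7.12 against 8.11 and 8.03. How far the number of duct cells moved with genotype was not tested. The usual duct keratins stood apart between genotypes: Krt19 had -2.10 and -2.23 against 0.78 and 0.92 (3.01 ± 0.50, adjusted p = 0.011). Krt7 had -4.18 and -4.75 against -1.50 and -1.40 (3.01 ± 0.48, adjusted p = 0.010). The adhesion molecule Epcam was uneven in AKP, with -5.33 and -3.29 against -1.21 and -1.12 (3.14 ± 0.77, adjusted p = 0.030), and the duct regulator Sox9 had -2.22 and -1.68 against 0.13 and 0.03 (2.03 ± 0.33, adjusted p = 0.011). These 4 genes do not overlap between genotypes, yet Krt19 lost its call without any 1 array and the other 3 without 2 or 3 of them (adjusted p up to 0.12).

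Ggt1 had -7.47 and -6.55 in AKP, not above background, and -3.46 and -3.27 in AKP::Keap1, at least 9.13-fold higher (adjusted p = 0.0019). Tspan8, Anxa13, an annexin of digestive epithelia (4.22 ± 0.41), and the splicing factor Esrp1, with probes from 0.64 to 2.11 (2.11 ± 0.17), were the next members by adjusted p, and their calls held with any 1 array left out. Spp1, osteopontin, which ducts and macrophages make, rose from 2.62 and 2.98 to 6.22 and 5.97 (3.29 ± 0.56, adjusted p = 0.012), and its call was lost without AKP male 1 or either AKP::Keap1 male (adjusted p up to 0.059).

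Of 14 measured genes of gastric, intestinal and mucin-type epithelium, 5 rose and 0 fell, with a median of 0.72, or 0.59 at bounds. Tff2, a trefoil peptide of the stomach, had -5.41 and -6.57 in AKP, above background on 1 of the 2 arrays, and 0.82 and 1.32 in AKP::Keap1 (7.06 ± 0.71, adjusted p = 0.0030). The microvillus protein Vil1 rose by 2.97 ± 0.50 and the mucin Muc13 by 1.17 ± 0.19, which was -0.01 with normexp background correction. In the 4 fits with 1 array less, 5, 2, 3 and 2 rose. Quantile normalization left 4 rises and 1 fall in the list (median 0.52), and normexp 3 and 3 (median -0.17). The 5 rises are 35.7% of the list. Of all genes of like brightness, 32.0% and 24.4% were called higher (bins 3 and 4 of the plot by brightness).

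Genes of the epithelial attachment machinery were higher too. Of 23 basement membrane, integrin and laminin genes, 12 rose and 1 fell, with a median of 0.79. Itgb4, the integrin of hemidesmosomes, had -3.95 and -3.57 against -0.39 and -0.21 (3.46 ± 0.48, adjusted p = 0.0072), and the laminin chain Lamb3 had -2.97 and -2.95 against -0.02 and 0.21 (3.05 ± 0.42). Itga6, the partner of Itgb4, rose by 1.31 ± 0.18. Itgb1, shared by many integrins, was the member that fell (-0.37 ± 0.11), a call lost after quantile normalization (adjusted p = 0.10) and with any 1 array left out. Without 1 array in turn, 3, 6, 4 and 4 rose, and the median was 0.37 with normexp (11 rises and 1 fall).

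Of 25 S100 and annexin genes, which bind calcium, 12 rose and 2 fell, with a median of 1.54, or 1.10 at bounds. When arrays were left out, 11, 9, 9 and 9 rose, and the median was 0.56 with normexp (11 rises and 3 falls). Besides S100b and Anxa13, S100a8 had -1.43 and -1.68 against 1.62 and 1.96 (3.34 ± 0.31) and S100a9 1.50 and 1.16 against 3.92 and 4.55 (2.90 ± 0.34). Both are granulocyte proteins and are also counted among the neutrophil genes. S100a13 (-0.64 ± 0.12) and S100a1 (-0.55 ± 0.15) fell, and the latter missed the threshold after quantile normalization (adjusted p = 0.096).

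Of 15 genes of the Notch pathway, which directs duct formation, 6 rose and 0 fell, with a median of 0.62. The target Nrarp had -5.19 and -5.14 against -2.85 and -3.51 (1.98 ± 0.27, adjusted p = 0.0067), and the ligand Jag1 rose by 1.63 ± 0.35. The ligand Jag2 was above background only in AKP::Keap1, at least 2.02-fold higher, but had -0.28 with normexp background correction. The rises numbered 2, 2, 3 and 2 with 1 array left out and 3 after quantile normalization (median 0.43), and normexp gave 2 rises and 2 falls (median 0.18). Of 17 targets and partners of YAP and TEAD, 5 rose and 0 fell, with a median of 0.57 (0.38 after quantile normalization and -0.01 with normexp), and with arrays left out 2, 1, 1 and 1. Tead4 was above background only in AKP::Keap1, at least 2.86-fold higher, and had -0.17 with normexp background correction, and Tead2 rose by 1.84 ± 0.33, a call lost without any 1 array (adjusted p up to 0.064).

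Of 20 markers of fetal liver and liver tumours, 11 rose and 0 fell, with a median of 2.05, or 1.62 at bounds. Ly6d had -1.61 and -1.52 against 2.73 and 3.32 (4.59 ± 0.27, adjusted p = 0.00084). Alpha-fetoprotein Afp, the classical fetal liver protein, had -0.33 and -0.41 against 2.61 and 2.48 (2.92 ± 0.35, adjusted p = 0.0050). Cd24a had -2.36 and -1.35 against 2.13 and 2.05 (3.94 ± 0.51), and the growth factor midkine, Mdk, rose by 1.82 ± 0.12 with probes from 1.0 to 1.82. The calls of these 4 genes held with any 1 array left out, and 6, 7, 7 and 6 of the list rose in those fits. With normexp the list's median was 1.19, with 12 rises and 2 falls.

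Proliferation genes were higher, with dim signals. Of 32 genes, 17 rose and 0 fell, with a median of 1.19, or 1.07 at bounds, but with arrays left out only 1, 9, 2 and 1 rose. There were 11 rises after quantile normalization (median 1.01) and 9 with normexp (median 0.39). Mcm5, a subunit of the replication helicase, had -2.32 and -2.23 against -0.93 and -0.93 (1.34 ± 0.23, adjusted p = 0.012), and the mitotic motor Cenpe had -3.50 and -2.93 against -1.23 and -1.52 (1.84 ± 0.32). Aurkb, a mitotic kinase, was above background only in AKP::Keap1, at least 1.35-fold higher, and had -0.33 with normexp background correction. Of 22 genes of the p53 pathway 4 rose and 2 fell, with a median of 0.14 (7 and 2, with 0.02, by normexp). The rises are 18.2% and the falls 9.09% of the list, near the 16.7% and 11.5% of all genes. The cell cycle inhibitors Cdkn2b (2.59 ± 0.39) and Cdkn2a (3.04 ± 0.60), the apoptosis gene Pmaip1 (1.94 ± 0.33) and Phlda3 (1.28 ± 0.28) rose, and Btg2 (-0.82 ± 0.14) and Perp (-0.46 ± 0.12) fell. Each of these 6 calls was lost without AKP::Keap1 male 2 (adjusted p up to 0.16 over the arrays left out), and Perp also after quantile normalization (adjusted p = 0.23).

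**Figure D4:**
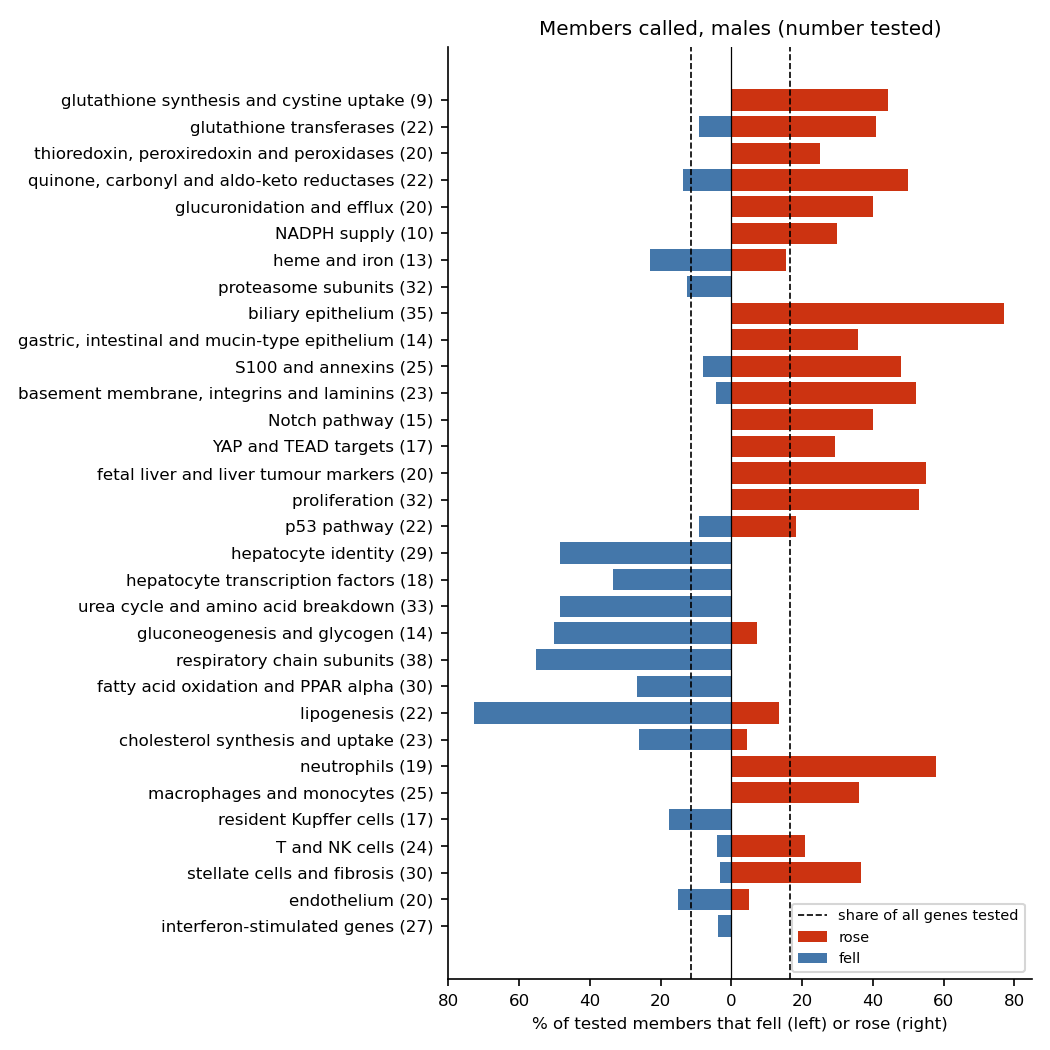
Share of the tested members of each gene list that rose (right) or fell (left) in AKP::Keap1 against AKP males, with the number tested in brackets; dashed lines mark the shares of all genes tested, 16.7% higher and 11.5% lower. Biliary epithelium has the longest bar to the right (27 of 35) and lipogenesis the longest to the left (16 of 22).

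Hepatocyte functions lay lower in the AKP::Keap1 livers. Among the 29 genes of hepatocyte identity 14 fell, 0 rose and 15 were without a call, with a median of -0.63, beside 11.5% of all genes called lower and a median of -0.36 among the brightest 1584 genes, where the median member of the list lies. After quantile normalization 2 fell and the median was -0.25, and with arrays left out 2, 2, 4 and 2 fell. Hpd, of tyrosine breakdown, had 5.71 and 5.72 against 4.86 and 4.67 (-0.95 ± 0.13, adjusted p = 0.0067). Albumin, Alb, had 9.07 and 8.71 against 8.34 and 8.42 and was not called (-0.51 ± 0.18, adjusted p = 0.081). Of 33 genes of the urea cycle and amino acid breakdown, 0 rose and 16 fell, with a median of -0.67, and with arrays left out 4, 3, 3 and 3 fell. After quantile normalization 4 fell (median -0.40). Cps1, the entry enzyme of the urea cycle, had 4.98 and 5.15 against 3.95 and 3.63 (-1.27 ± 0.29, adjusted p = 0.024, and 0.056 after quantile normalization), and Asl had 4.94 and 4.94 against 3.65 and 4.04 (-1.10 ± 0.21).

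Of 18 hepatocyte transcription factors, 0 rose and 6 fell, with a median of -0.59. Nr5a2, a receptor that acts on bile acid genes, fell by 0.95 ± 0.13 with probes from -0.95 to 0.05, and Esrra by 0.77 ± 0.15. Hnf4a, the main regulator of hepatocyte identity, had 6.89 and 6.91 against 6.30 and 6.23 (-0.64 ± 0.16, adjusted p = 0.034), and Foxa3 had 1.31 and 0.95 against -0.49 and -0.07 (-1.41 ± 0.39). After quantile normalization 2 of the 6 were called, Hnf4a with an adjusted p of 0.35 and Foxa3 with 0.062, and with arrays left out 2, 1, 2 and 2 fell. With normexp 1 rose and 9 fell.

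Of 34 cytochrome P450 genes of families 1 to 3, 3 rose and 6 fell, with a median of -0.29. These are 8.82% and 17.6% of the list, beside 16.7% and 11.5% of all genes. Among the brightest 1584 genes, where the median member of the list lies, 2.84% were called higher and 23.7% lower. Cyp2c65, a P450 of the gut, was above background only in AKP::Keap1 and at least 1.08-fold higher, but had -0.45 with normexp background correction. Cyp1b1 rose by 1.79 ± 0.30 and Cyp2a4, which hydroxylates steroids, by 1.29 ± 0.25. Cyp2d10 (-0.62 ± 0.14) and Cyp2c29 (-0.71 ± 0.16) fell, and after quantile normalization 3 genes of the list rose and 0 fell, against 1 and 12 with normexp. With arrays left out 1, 2, 2 and 1 rose and 1, 1, 3 and 1 fell. Genes that livers of one sex express more strongly moved in both directions. Of 23 male-biased genes 1 rose and 3 fell, with a median of -0.26. Quantile normalization turned this to 4 rises and 1 fall (median 0.03), and normexp gave 3 and 4. Of 22 female-biased genes 5 rose and 5 fell, with a median of 0.07. For these, quantile normalization gave 2 rises and 4 falls. Normexp gave 3 and 7, with a median of -0.42 relative to all genes. Called genes were 17.4% of the male-biased and 45.5% of the female-biased list, beside 28.2% of all genes. Susd4 (-1.28 ± 0.14) and the major urinary protein Mup3 (-0.55 ± 0.16, adjusted p of 0.51 after quantile normalization) were among the male-biased falls, Spink1 (3.83 ± 0.77) was the male-biased rise, and Prom1 (3.43 ± 0.47), which duct cells also make, was the first of the female-biased rises by adjusted p. The growth hormone and IGF axis had 1 rise, the receptor Igf1r (0.87 ± 0.21), and 3 falls among 15 genes, with a median of -0.03 that was 0.06 after quantile normalization. The call of Igf1r did not hold after quantile normalization (adjusted p = 0.063), where 0 members rose and 2 fell. With 1 male array left out its difference lay between 0.71 and 1.02. Igfals, the liver-made partner of IGF1, fell from 2.24 and 2.08 to 0.95 and 0.93 (-1.22 ± 0.12, adjusted p = 0.0028), and the growth hormone receptor Ghr from 5.32 and 5.06 to 4.43 and 4.39 (-0.77 ± 0.14).

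Lipogenesis had the largest share of falls of any list. Of 22 genes, 3 rose and 16 fell, with a median of -1.35 (-1.09 after quantile normalization, with 3 rises and 15 falls). In the 4 fits with 1 array less, 9, 11, 10 and 11 fell, and the 3 rises stayed in each. Fasn, fatty acid synthase, had 1.58 and 1.29 against -0.99 and -0.84 (-2.35 ± 0.22, adjusted p = 0.0023). The desaturase Fads1 had 3.45 and 3.20 against 2.07 and 1.89 (-1.34 ± 0.14), and Elovl6 and Lpin1 are given above. The rises were the fatty acid receptor Cd36 (1.26 ± 0.14), the adipogenic receptor Pparg (1.37 ± 0.16) and Scd2, a desaturase of fetal liver and of other tissues, which went from -0.23 and 0.01 to 2.17 and 2.26 (2.33 ± 0.33, adjusted p = 0.0073). Of 13 lipid droplet genes 2 rose and 4 fell: Cidea had -4.42 and -4.13 against -1.44 and -1.03 (3.04 ± 0.55), Fitm1 rose by 2.06 ± 0.39, and Plin5, the perilipin of oxidative tissue, was among the falls (-1.36 ± 0.18). After quantile normalization 2 rose and 1 fell, and with arrays left out 1, 0, 0 and 0 rose and 1, 1, 2 and 1 fell.

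Of 23 genes of cholesterol synthesis and uptake 1 rose and 6 fell, with a median of -0.54 (-0.24 after quantile normalization, with 0 rises and 4 falls, against 1 and 9 with normexp). With arrays left out 2, 2, 2 and 5 fell. Insig1, a brake on sterol synthesis, fell by 1.07 ± 0.13, Stard4 by 1.54 ± 0.22 and Ebp by 0.91 ± 0.17. Of 22 genes of bile acid synthesis and transport 1 rose and 4 fell, with a median of -0.47. Quantile normalization gave 3 rises and 1 fall (median -0.23) and normexp 2 and 9, and with arrays left out 0, 1, 2 and 2 fell. Cyp8b1, which makes cholic acid, was the rise, from -3.39 and -2.69 to 0.15 and -1.24 (2.49 ± 0.52, adjusted p = 0.020), and its call was lost without either AKP male or AKP::Keap1 male 1 (adjusted p up to 0.092). The uptake carrier Slco1b2 fell by 0.77 ± 0.13 (adjusted p = 0.011, and 0.10 after quantile normalization).

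Of 30 genes that burn fatty acids or act with PPAR alpha, 0 rose and 8 fell, with a median of -0.57, yet 0 were called after quantile normalization (median -0.42) and 15 fell with normexp, and with arrays left out 5, 1, 1 and 0 fell. Acaa2 (-0.82 ± 0.15) and Decr1 (-0.66 ± 0.13) of mitochondrial beta-oxidation were the first by adjusted p. Of 38 respiratory chain subunits, 0 rose and 21 fell, with a median of -0.59. Cyc1 of complex III had 5.46 and 5.22 against 4.60 and 4.46 (-0.80 ± 0.14). After quantile normalization 4 subunits fell (median -0.29), and with arrays left out 0, 2, 2 and 0. The 37 cytosolic ribosomal protein genes had 0 rises, 2 falls and a median of -0.21, which was 0.15 after quantile normalization.

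Of 14 genes of gluconeogenesis and glycogen, 1 rose and 7 fell, with a median of -0.72, and after quantile normalization 2 rose and 2 fell. With arrays left out 0, 1, 0 and 0 rose and 1, 2, 2 and 2 fell. Pklr, liver pyruvate kinase, had 0.91 and 0.61 against -1.21 and -0.80 (-1.76 ± 0.18, adjusted p = 0.0031). It is an enzyme of glycolysis, yet it was counted in this list and not among the glycolysis genes below. The glucose carrier Slc2a2 had 4.46 and 4.36 against 3.25 and 3.36 (-1.11 ± 0.18), and the glycogen regulator Ppp1r3c rose by 1.38 ± 0.27. Of 22 glycolysis genes 3 rose and 5 fell, with a median of -0.33, and after quantile normalization 1 rose and 1 fell (median -0.13). In the fits with an array left out 0, 0, 1 and 0 rose and 0, 1, 0 and 0 fell. The hexokinases of non-hepatocyte tissue Hk1 (1.47 ± 0.30, with probes from 0.65 to 1.47) and Hk2 (1.22 ± 0.32) were among the rises, while Pfkl, the liver phosphofructokinase, fell by 0.65 ± 0.11. The call of Hk2 did not hold after quantile normalization (adjusted p = 0.056).

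The ATF4 and unfolded protein response split in both directions. Of 33 genes, 7 rose and 8 fell, with a median of -0.19 (0.10 after quantile normalization, with 5 rises and 2 falls). Phgdh, the first enzyme of serine synthesis, had -3.87 and -3.90 against -2.37 and -1.51 (1.95 ± 0.31, adjusted p = 0.010), and asparagine synthetase Asns was uneven, with 1.26 and -0.43 against 2.31 and 4.24 (2.86 ± 0.76, adjusted p = 0.038). Creld2 had 5.24 and 5.87 against 3.77 and 3.80 (-1.77 ± 0.35), and the endoplasmic reticulum chaperone Hspa5, also known as BiP, had 7.23 and 7.26 against 6.44 and 6.34 (-0.86 ± 0.14). Manf fell by 1.0 ± 0.18. The calls of Hspa5 and Manf ended after quantile normalization (adjusted p = 0.12 and 0.052), and with arrays left out 3, 2, 5 and 2 of the list rose and 3, 1, 1 and 0 fell.

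Markers of inflammatory cells were higher. Of 19 neutrophil genes, 11 rose and 0 fell, with a median of 2.25, or 2.10 at bounds. The median level of the list was -4.28 and -4.59 in the AKP males and -3.41 and -0.96 in the AKP::Keap1 males, so AKP::Keap1 male 2 was higher than its group mate, and its summed level was 5.43 and 5.62 against 6.38 and 6.99. Without 1 array in turn, 5, 4, 11 and 4 rose, and 7 did after quantile normalization (median 1.95) and 6 with normexp (median 0.68). Besides S100a8 and S100a9, neutrophil elastase Elane had 1.36 and 0.90 against 3.68 and 3.54 (2.48 ± 0.25, adjusted p = 0.0029), and the decoy receptor Il1r2 was at least 6.44-fold higher. Of 25 macrophage and monocyte genes, 9 rose and 0 fell, with a median of 0.66, and with arrays left out 6, 8, 6 and 3 rose, while the summed level, which its brightest genes set, was 9.06 and 8.90 against 8.94 and 9.03. Cx3cr1, a receptor of monocyte-derived cells, had -3.12 and -3.27 against 0.27 and 0.53 (3.59 ± 0.49, adjusted p = 0.0069). The monocyte receptor Ccr2 had -3.60 and -3.51 against -1.72 and -1.78 (1.80 ± 0.25), and Trem2, of lipid-laden macrophages, rose by 3.08 ± 0.45. The 17 genes of resident Kupffer cells had 0 rises and 3 falls, Nr1h3 (-0.62 ± 0.13, adjusted p of 0.086 after quantile normalization) and Fabp7 (-0.65 ± 0.14) among them, with a median of -0.08 that was 0.03 after quantile normalization.

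Of 26 CXC and CC chemokines, 9 rose and 2 fell, with a median of 0.65. Ccl2, which recruits monocytes, had -1.37 and -0.97 against 2.67 and 2.86 (3.93 ± 0.54, adjusted p = 0.0071), Ccl21a rose by 3.20 ± 0.42, and Ccl25 (-0.94 ± 0.15) led the falls. When arrays were left out, 4, 4, 5 and 3 rose. Quantile normalization gave 5 rises and 1 fall (median 0.44), and normexp 4 and 5 (median 0.05). Of 21 cytokines 9 rose and 0 fell, with a median of 0.77. Tnf had -6.21 and -5.56 against -3.37 and -2.89 (2.76 ± 0.53, adjusted p = 0.017), a call lost without any 1 array (adjusted p up to 0.089), and 0, 5, 2 and 0 cytokines rose in those fits. After quantile normalization 4 rose and 0 fell (median 0.37), whereas with normexp 4 rose and 5 fell (median -0.07). The 9 cytokines that rose are 42.9% of the list, beside 32.0% of all genes of like brightness (bin 3 of the plot by brightness). Of 27 interferon-stimulated genes 0 rose and 1 fell, Bst2 (-1.06 ± 0.15), with a median of -0.17. Of 22 acute phase proteins 2 rose and 1 fell, with a median of 0.18. Lcn2 (0.90 and 1.90 against 3.79 and 5.74) and Saa2 (3.76 and 4.14 against 5.21 and 7.76) rose with uneven levels, and 0, 0, 9 and 1 of the list rose with arrays left out, so the count without AKP::Keap1 male 1 stands apart.

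Of 24 T and NK cell genes 5 rose and 1 fell, with a median of 0.49. The 5 are 20.8% of the list, while 32.0% and 24.4% of all genes of like brightness were called higher (bins 3 and 4 of the plot by brightness). Quantile normalization gave 3 rises and 1 fall (median 0.20), and normexp 3 and 4 (median -0.14). Cd3e, of the T cell receptor complex, had 0.02 and -0.20 against 0.95 and 0.81 (0.98 ± 0.20, adjusted p = 0.019), Cd5 rose by 0.86 ± 0.16, and Zap70, a kinase of the same receptor, fell from 1.98 and 1.80 to 0.86 and 0.70 (-1.11 ± 0.21, adjusted p = 0.016). The rises numbered 0, 6, 0 and 0 with 1 array left out. Of 13 B and plasma cell genes 3 rose and 1 fell, with a median of 0.47, or 0.40 at bounds, and with arrays left out 1, 1, 6 and 1 rose. The 3 rises are 23.1% of this list, while 24.4% of all genes of like brightness were called higher (bin 4 of the plot by brightness). Here 1 rose and 0 fell after quantile normalization (median 0.32), and 1 and 4 with normexp (median 0.01).

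Of 30 stellate cell and fibrosis genes, 11 rose and 1 fell, with a median of 0.45. Timp1, which inhibits matrix proteases, had -4.07 and -4.11 against -1.56 and -1.43 (2.60 ± 0.20, adjusted p = 0.0013), and the fibrillar collagen Col3a1 had 0.84 and 0.74 against 2.66 and 2.37 (1.73 ± 0.15, adjusted p = 0.0018). Fbn1, fibrillin, rose by 1.24 ± 0.16. Decorin, Dcn, which quiescent stellate cells also make, fell by 0.81 ± 0.18, a call lost after quantile normalization (adjusted p = 0.14). In the 4 fits with 1 array less, 8, 6, 5 and 6 rose, and with normexp 10 rose and 3 fell (median 0.16). Of 24 matrix proteases and inhibitors 9 rose and 1 fell, with a median of 0.94, and with arrays left out 6, 4, 5 and 5 rose. After quantile normalization 5 rose and 2 fell (median 0.61), and with normexp 6 and 4 (median 0.06). The 9 rises are 37.5% of the list, beside 32.0% of all genes of like brightness (bin 3 of the plot by brightness). Adamts9 (1.68 ± 0.19) and Adam8 (2.52 ± 0.35), a protease of leukocytes and tumour cells, rose, and the inhibitor Timp3 fell (-0.82 ± 0.16).

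Of 20 endothelial genes 1 rose and 3 fell, with a median of -0.10. Cd34 rose by 1.23 ± 0.30 with probes from 0.73 to 1.23, while the sinusoidal lectin Clec4g (-0.51 ± 0.13) and the receptor Flt1 (-0.49 ± 0.14) fell, calls that ended after quantile normalization (adjusted p = 0.23 and 0.081). Of 18 genes of Wnt signalling and the pericentral zone 2 rose and 4 fell, with a median of -0.23 (-0.04 after quantile normalization). Among 19 clock genes 0 rose and 2 fell, Rora (-0.85 ± 0.15) and Hlf (-0.92 ± 0.20), with a median of -0.37. The 2 falls are 10.5% of the list, beside 11.5% of all genes called lower. With unscaled signals 0 clock genes fell, and with normexp 5 did.

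Markers of tissues that could have been taken along with the liver were measured as well. Of 11 measured pancreatic acinar genes 2 rose and 1 fell, with a median of 0.16 (-0.02 after quantile normalization), and their summed level was 2.04 and 1.98 in AKP and 2.18 and 1.91 in AKP::Keap1. Cela1 rose from -4.10 and -4.23 to -0.26 and -0.09 (3.99 ± 0.32) and Clps from -3.01 and -3.18 to -0.76 and -0.83 (2.30 ± 0.28). Of 6 skeletal muscle genes 3 rose and 1 fell, with summed levels from -1.42 to -0.79 and a median of 0.54 (0.23 after quantile normalization, and -0.15 relative to all genes with normexp background correction). The part of these markers in the differences above was not tested.

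The 2 mice of a genotype agreed in most genes, with a correlation across genes of 0.991 in AKP and 0.992 in AKP::Keap1, where genes are not independent replicates. Of 14142 genes above background on all 4 male arrays, 336 differed at least 2-fold between the AKP males and 279 between the AKP::Keap1 males. The genes named next were chosen after their values were seen. In AKP, male 2 was higher in Cyp4a14 (-1.59 and 4.09) and Cyp4a10 (1.39 and 3.98), fatty acid hydroxylases that PPAR alpha drives, and in the drug-metabolising Cyp2b10 (0.72 and 3.85). None of these 3 genes was called, although Cyp4a14 had -2.84 and -4.11 in the AKP::Keap1 males (-4.73 ± 1.68, adjusted p = 0.078). In AKP::Keap1, male 2 was higher in the acute phase genes Saa1 (5.26 and 8.34) and Orm3 (-0.26 and 3.06), in the metallothionein Mt2 (3.05 and 6.51) and in the myeloid granule genes Mpo (-4.36 and -0.96) and Prtn3 (-5.12 and -1.72). The clock genes Arntl (-0.81 and -3.65) and Ciart (-3.21 and -0.78) also differed between the AKP::Keap1 males, and Cish, a target of growth hormone signalling, differed within both genotypes (3.89 and 1.57, and 2.78 and -0.41).

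Whether the response in males differed from that in females was tested as the female difference minus the male difference. This interaction was called for 272 of 15834 genes, 1.72%, 65 of them with a higher and 207 with a lower value in females. In the females 21.4% of genes were called between the genotypes (3390 genes). Of the 207, 135 rose in males, and 91 of those were not called in females. Males and females lay on different slides and were scanned on different days, so sex, slide and day cannot be told apart here. With 1 male array left out 32, 0, 51 and 3 genes were called, so the count rests on every one of these arrays. Without AKP male 2, 3297 genes had an unadjusted p below 0.05 in limma's fit.

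Several of these genes set the AKP::Keap1 males apart from the other 3 groups. Tbx10, a T-box transcription factor, had -2.46 and -2.96 in AKP males, and 1.97 and 1.54 with Keap1 deleted, -2.99 and -2.94 in AKP females and -2.29 and -2.48 in AKP::Keap1 females (interaction -3.88 ± 0.31, adjusted p = 0.016). Obp1a, an odorant-binding protein of the nose, had -2.04 and -2.20, then 1.81 and 1.22, in males and between -1.62 and -1.28 in the 4 females (-3.67 ± 0.32, adjusted p = 0.016). Cryaa, a lens crystallin, rose in males from -1.29 and -2.32 to 2.05 and 2.50 and lay between -4.45 and -4.20 in the females (-4.16 ± 0.48, adjusted p = 0.028). In these 3 genes the AKP::Keap1 males were the only group above 0. Bard1, a partner of BRCA1, showed the same order by the probe used (-3.85 ± 0.32), while its other probe gave a male difference of 0.87.

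Mfsd2a and Kyat3 were low in the AKP::Keap1 males and high in the other 3 groups. Mfsd2a had 1.84 and 2.61 in AKP females and 2.90 and 2.71 in AKP::Keap1 females, against -0.67 and -0.57 in AKP::Keap1 males (interaction 3.93 ± 0.35, adjusted p = 0.017). Kyat3 had 4.68, 4.32, 4.49 and 4.27 in the females, against 1.29 and 1.82 in AKP::Keap1 males (3.05 ± 0.32, adjusted p = 0.024). Abcc12 rose in both sexes, by 6.88 in males and 2.76 ± 0.19 in females (-4.11 ± 0.27, adjusted p = 0.016). Tafa2 had levels near those of the AKP::Keap1 males already in the AKP females, -0.12 and 0.24, and its female rise was 1.51 ± 0.29 (-4.30 ± 0.41, adjusted p = 0.018).

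Genes with a higher female difference also included Gfra4, a receptor of the GDNF family, with 6.65, 6.27, 6.55 and 6.39 in the males and with 3.70 and 2.86 in AKP females against 6.77 and 6.47 in AKP::Keap1 females (3.32 ± 0.42, adjusted p = 0.034). Chrdl2 (2.95 ± 0.49, with 1 AKP female not above background), Ggt1 (2.83 ± 0.44) and Hpdl (2.71 ± 0.37) completed the 6. The Ggt1 value includes signals below background in AKP, where the bounds were at least 9.13-fold in males and at least 23.3-fold in females.

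Among genes called in both sexes, 1695 moved in the same direction in males and females. In 52 genes the calls were opposite in the sexes, and 38 of these 52 had a called interaction. Il1rn, the antagonist of interleukin 1, rose by 1.31 ± 0.37 in males and fell by 1.90 in females. Hpdl fell by 0.95 in males and rose by 1.76 ± 0.26 in females, and Slc23a2, a vitamin C carrier, rose by 0.59 ± 0.14 in males and fell by 1.64 in females. Sdk1 was not above background in any AKP or AKP::Keap1 male, so its male value (1.21 ± 0.30) is not a measured size. Htr5a (interaction adjusted p = 0.053) and Xist belong to the same group. The male calls of Il1rn, Hpdl and Slc23a2 were lost with any 1 male array left out (adjusted p up to 0.18), and those of Il1rn and Slc23a2 after quantile normalization as well (adjusted p = 0.11 and 0.16).

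Lipogenesis had medians of -1.35 in males and -0.29 in females, and respiratory chain subunits had -0.59 and 0.10, with 2 and 0 members called in the interaction. Fasn, for example, had -2.35 ± 0.22 in males and -0.55 ± 0.22 in females, and its interaction missed the threshold (1.80 ± 0.30, adjusted p = 0.051). The gap in respiratory chain subunits was not particular to them. Proteasome subunits had medians of -0.22 in males and 0.17 in females, and cytosolic ribosomal proteins -0.21 and 0.23. Glucuronidation and efflux (0.60 and 0.42) and acute phase proteins (0.18 and -0.16) went the other way. Biliary epithelium had medians of 2.65 and 2.36. Keap1 itself fell by 2.34 in females, and the difference between the sexes was not called (1.02 ± 0.21, adjusted p = 0.075).

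**Figure D5:**
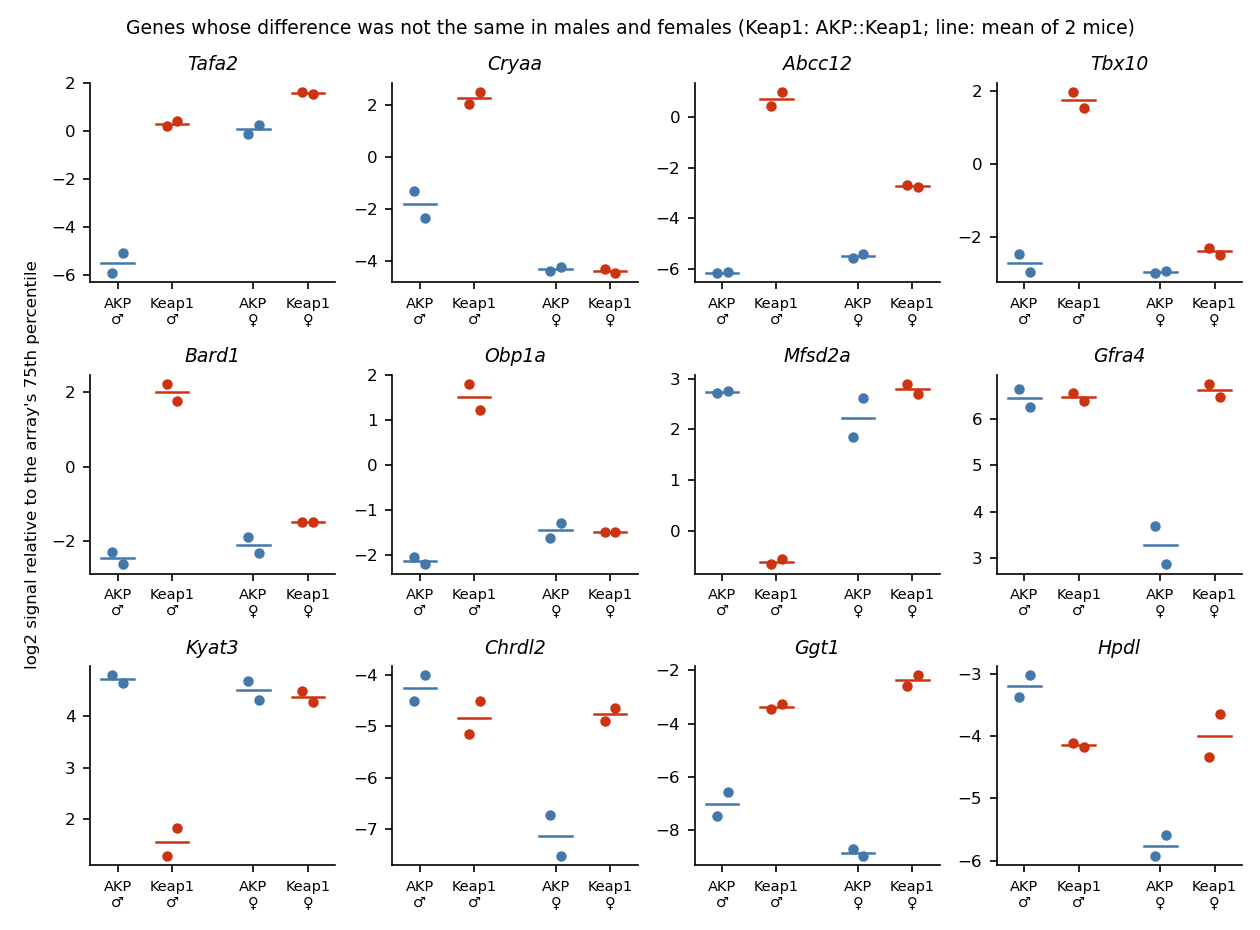
Levels (log2 signal relative to the array's 75th percentile) of the 6 genes with the lowest and the 6 with the highest interaction by the naming rule, 1 point per mouse and a line at each group mean, in AKP and AKP::Keap1 (labelled Keap1) males and females; the vertical axes differ between panels. Cryaa, Tbx10, Bard1 and Obp1a are above 0 in the AKP::Keap1 males only, and Mfsd2a and Kyat3 are lowest there.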

How the data were processed

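Cy3-labelled RNA of 8 whole livers was hybridised to 1-colour Agilent arrays (design 026655), 1 mouse per array and 2 mice per group. The intensities used are Agilent's processed signals as deposited, background-subtracted by Feature Extraction, whose version is 10.7.3.1 per the file headers and 10.1 per the submitters' processing notes. The deposited series matrix held the same values (355176 of 355176). Gene names came from the array annotation and RefSeq (GRCm38.p6), with 26055 of 39429 probes named, for 19751 symbols. Some genes are not reported here.

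Each array's 75th percentile was subtracted from its log2 intensities. Probes flagged well above background on 2 or more of the 8 arrays were kept, the brightest standing for its gene, which left 15834 genes. limma 3.58.1 in R 4.3.3 was fitted to 8 arrays with a mean per group (4 residual and 2.22 prior degrees of freedom), and the test was 2-sided. The script was checked on simulated data. Where a group was below background on both arrays, "at least N-fold" sets the bright group's mean against the higher of the dim probe's signal and the array's lowest signal well above background. Replicate numbers were not used to pair the mice in the main fit. Same-numbered deviations correlated across genes at -0.055 in males and -0.156 in females. With 2 mice per group, and genes that are not independent, these values cannot show whether the mice were paired.

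The samples compared, the gene lists and the genes named were chosen with earlier results of these data known. The rule names Keap1, Nfe2l2, Trp53 and sex chromosome genes, the 12 most raised and the 12 most lowered of the called, non-overlapping genes with signal on all 4 male arrays, and the 6 per direction with the highest bound. It also names up to 4 risers and 4 fallers per list by adjusted p, or up to 2 members where none was called, and members that explain a count. For the interaction it takes 6 per direction and up to 6 genes with opposite calls in the sexes. Alternatives were other scalings, normexp background correction on the median signal with an offset of 50, other filters, the median of a gene's probes, the 4 male arrays alone, another variance model, a replicate block and each male array left out.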

Additional observations from a re-analysis of the deposited data

Results flagged for a closer look

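The genes below are listed because the genotype difference in females, minus that in males, was called by limma's interaction test (adjusted p below 0.05, 2 mice per group, 1 slide per group). The interaction was negative, so the female difference was the lower, for Tafa2 (-4.30), Cryaa (-4.16), Abcc12 (-4.11), Tbx10 (-3.88), Bard1 (-3.85), Obp1a (-3.67), Il1rn (-3.21), Sdk1 (-3.08), Xist (-2.52), Slc23a2 (-2.23), Esrp1 (-1.66), Pparg (-1.49), Mup3 (-1.34) and Mdk (-1.13). It was positive for Mfsd2a (3.93), Gfra4 (3.32), Kyat3 (3.05), Chrdl2 (2.95), Ggt1 (2.83), Hpdl (2.71), Prxl2b (2.06), Manf (1.62) and Susd4 (1.28). After quantile normalization 14 of these 23 kept the call. Without AKP male 1, AKP male 2, AKP::Keap1 male 1 and AKP::Keap1 male 2 in turn, 6, 0, 4 and 1 kept it. With the replicate block the smallest adjusted p among them was 0.14. The values of Xist, Sdk1, Ggt1 and Chrdl2 include signals that were not well above background, for Chrdl2 on 1 AKP female array.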

How the results depend on the processing

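The fall of Keap1 kept its direction and its call under each alternative run. The count of 4464 called genes became 8232 with a shift to the array median and 1841 with the replicate block, and ranged from 1033 to 1610 with 1 male array left out. Genes called higher (2649) became 1710 with the array median, 1761 after quantile normalization, 5404 unscaled, 1511 with normexp and 1440 with the block, and 825 to 1272 with an array left out. Genes called lower (1815) became 6522, 170 unscaled, 4399 with normexp and 401 with the block, and 208 to 406 with an array left out. At least 2-fold calls (2072) became 3672 unscaled, 995 with normexp and 936 to 1342 with an array left out. The 272 interaction calls became 1189 with the array median, 160 after quantile normalization, 460 unscaled, 118 without a filter on dim probes, 541 with a trended robust variance model and 0 to 51 with an array left out. The cause of these shifts was not tested.

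The replicate block left 0 interaction calls in limma's fit, with 2750 genes at an unadjusted p below 0.05; this fit spends degrees of freedom that 2 mice per group hardly give. A block with the female numbers crossed, chosen after seeing the data, gave 3201 calls in males and 0 for the interaction (3352 unadjusted).

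Directions reversed with unscaled signals for Nfe2l2 (0.18), Hmox1 (0.18), Fech (0.081), Pgam5 (0.080), Itgb1 (0.13), Perp (0.047) and Flt1 (0.013). With normexp they reversed for Trp53 (-0.23), Xist (-0.79), Gfra4 (-0.0095), Sdk1 (-0.63), Htr5a (-0.58), Muc13 (-0.0090), Jag2 (-0.28), Tead4 (-0.17), Aurkb (-0.33) and Cyp2c65 (-0.45), and for the medians, from all genes, of heme and iron (0.053) and skeletal muscle genes (-0.15). Trp53 was -0.30 with the array median, -0.31 after quantile normalization and -0.11 and 0.24 without AKP::Keap1 male 1 or 2. Gfra4 was -0.35 with the array median, and 0.20, -0.17 and -0.065 without AKP male 1, AKP male 2 or AKP::Keap1 male 1, and Hmox1 was 0.17 and -0.82 without AKP::Keap1 male 1 or 2. Normexp used the median signal in place of the planned mean signal. Signal near background limits the size of rises from dim levels, and 2 mice per group limit every call.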
